A study of Mus musculus with 6 samples.

Results

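The SRSF and hnRNP genes are the 2 large families of RNA-binding proteins that steer the choice of splice sites. They were taken here as every protein-coding row of the deposited gene table whose symbol is Srsf followed by a number or begins with Hnrnp. The rule found 31 genes among 54660 rows, 11 of the SRSF family and 20 of the hnRNP family. Of these, 30 passed the expression filter of the test, all except Srsf12. The level of each was compared between mouse bone marrow-derived macrophages (BMDMs), which are macrophages grown in culture from marrow, that lacked or carried Xbp1. XBP1 is a factor that switches on genes of the unfolded protein response, and its own mRNA is cut by the endoplasmic reticulum enzyme IRE1 and not by the spliceosome.

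The KO group comprised 3 libraries from Xbp1M-KO mice, in which Xbp1 is deleted in myeloid cells. The WT group comprised 3 libraries from Xbp1FL/FL mice, which carry the floxed allele without the deletion, so WT here does not mean unmodified mice. All were C57BL/6 mice aged 6-8 weeks, and all BMDMs had been stimulated with lipopolysaccharide (LPS), a bacterial cell wall component, for 6 h before lysis. The sources used here do not name the Cre driver. Unstimulated cells were not analysed here, so every value describes LPS-stimulated macrophages. Whether each library stands for a different animal is not in the labels, so the p-values rest on library-to-library spread that may be technical.

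SR proteins carry RNA recognition motifs and a tail of arginine and serine repeats. They bind exonic enhancers and recruit spliceosome subunits to the neighbouring splice sites, and kinases of the SRPK and CLK families phosphorylate the tail. The hnRNP proteins coat nascent transcripts and often act from exonic or intronic silencers, so that the balance between the families sets the inclusion of many cassette exons. Members of both families also act outside splicing, in mRNA export, mRNA decay and translation. Many SR genes limit their own expression by including an exon that carries a premature stop codon, which sends the transcript to nonsense-mediated decay.

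Library totals ranged from 31976748 to 42448058 counts in KO and from 32584064 to 37652501 counts in WT. In these libraries 3 counts equal 0.0707 to 0.0938 CPM (the count relative to the library size) before TMM scaling. All CPM levels given below are scaled by TMM. Xbp1 itself was at 66.2, 65.5 and 65.6 CPM in the KO libraries, against 91.1, 88.2 and 87.4 CPM in the WT libraries. The KO libraries were all lower, with a log2 fold change of -0.43 (SE 0.0363; adjusted p = 2.38e-08, edgeR), and gene counts can include exons outside the deleted part. All 8 macrophage markers were expressed, with a summed level of 20284 to 20958 CPM in KO and 37607 to 39087 CPM in WT, of which Lyz2, encoding lysozyme, made up 11509 ± 348 CPM in KO and 29816 ± 761 CPM in WT (SD, n = 3 each). Of these markers 4 rose, 3 fell and 1 was not called.

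Of the 13080 genes that passed the filter, 61.3% were called different between KO and WT at an adjusted p under 0.05, with 31.5% higher and 29.8% lower in KO, and 64.5% of the protein-coding rows tested were called. Against that background, 26 of the 30 SRSF and hnRNP genes were called, 17 of them higher in KO and 9 lower. Among the SRSF genes 6 rose, 3 fell and 1 was not called. Among the hnRNP genes 11 rose, 6 fell and 3 were not called. At an added fold change of at least 1.5, which 23.9% of all genes passed, 12.3% upwards and 11.6% downwards, 6 members were higher and 0 were lower. Srsf3, at a log2 fold change of -0.58, lay just short of that fold, and the count lower was 1 without KO replicate 1, KO replicate 3 or WT replicate 3, with RLE scaling, and with a filter of 1 CPM in 3 libraries. The groups did not overlap in 26 of the 30 members, against 65.9% of all genes tested, and these were the same 26 that were called. The median log2 fold change was 0.21 over the 30 members and -0.0016 over all genes tested. The median size of the change, regardless of sign, was 0.32 for the members and 0.36 for all genes. Each tested member held 1111 to 45247 counts over the 6 libraries, and the shares over all genes were not matched for depth. The part of depth in the share of members called was not tested. When the libraries were scaled by their totals alone, the median of all genes moved to 0.11, the split of all genes moved to 39.1% higher and 22.6% lower (61.7% in all), and 19 members were higher and 6 lower.

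**Figure D1:**
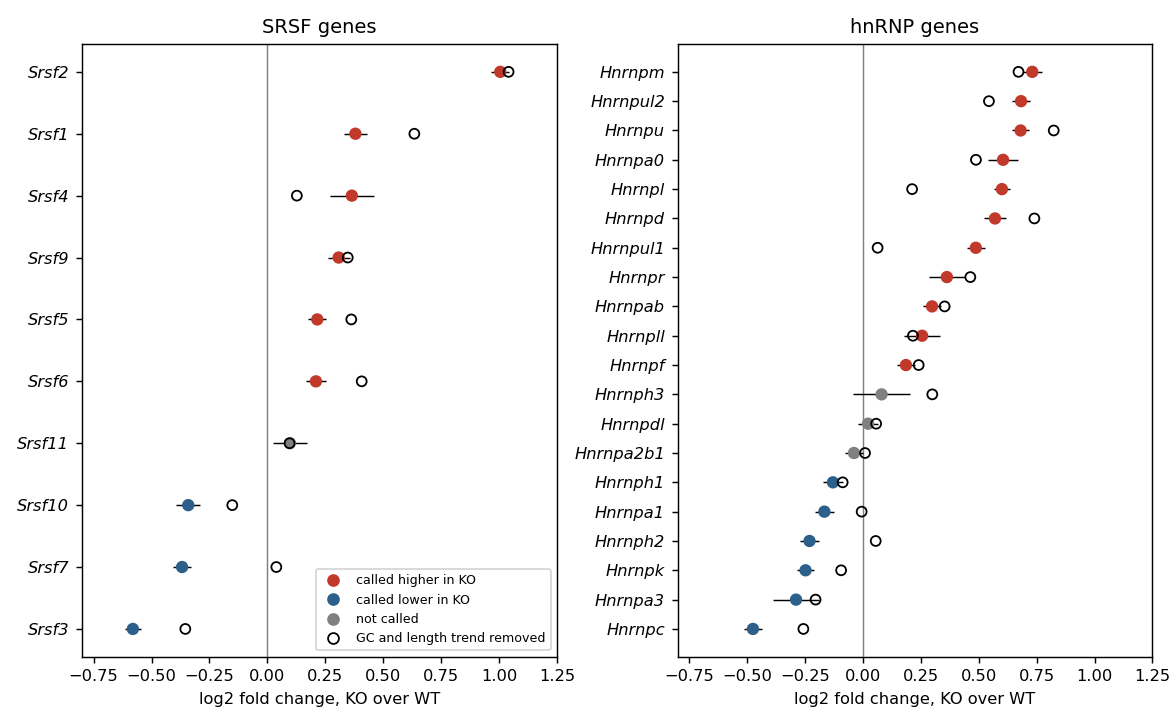
Log2 fold change, KO over WT, of each of the 30 tested genes with its standard error, ordered by value, from edgeR (filled) and with the GC and length trend removed (open), in 1 panel per family. Srsf2 stands at the top with 1.01 and Srsf3 at the bottom with -0.58, and of the called genes Srsf7 and Hnrnph2 cross 0 when the trend is removed.

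Within the SRSF family the change ran in opposite directions. Srsf2 doubled in level, whereas Srsf3, Srsf7 and Srsf10 fell. SRSF2 is an SR protein of nuclear speckles that binds exonic enhancers through its RNA recognition motif, and SRSF3 is the smallest SR protein and links splicing to mRNA export. SRSF7 is closely related to SRSF3 and also an export adaptor. The sequences before the start sites of Srsf2 and Srsf3 are shown because these genes had the highest and the lowest fold change of the 30. They are from RefSeq on GRCm38.p6, with the CCAAT and TATAAA letters in capitals on either strand (chr11:116853095-116853344, minus strand, and chr17:29032410-29032627, plus strand).
Srsf2: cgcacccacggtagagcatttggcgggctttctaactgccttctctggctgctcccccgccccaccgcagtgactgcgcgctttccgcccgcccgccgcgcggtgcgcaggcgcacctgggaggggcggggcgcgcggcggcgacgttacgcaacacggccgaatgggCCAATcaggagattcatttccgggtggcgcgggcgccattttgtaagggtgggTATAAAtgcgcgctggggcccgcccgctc
Srsf3: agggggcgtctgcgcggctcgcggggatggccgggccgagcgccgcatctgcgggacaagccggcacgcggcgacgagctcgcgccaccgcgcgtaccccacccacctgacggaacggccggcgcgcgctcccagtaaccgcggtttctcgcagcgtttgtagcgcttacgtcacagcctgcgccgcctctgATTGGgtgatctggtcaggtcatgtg
The remaining 32 bases of the Srsf3 window lie inside the deposited gene, hold its TATAAA and are not printed. Over the whole window of 250 bases the GC content was 69.6% for both genes.

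Srsf2 (chromosome 11, 116849901 to 116853094, mm10) was at 107, 108 and 109 CPM in the KO libraries, against 55.1, 55.0 and 50.9 CPM in the WT libraries. Every KO library was above every WT library by a wide margin. The log2 fold change was 1.01 (SE 0.0398; adjusted p = 3.75e-12, edgeR). Srsf3 (chromosome 17, 29032628 to 29043373) was at 160.5, 152 and 160.4 CPM in KO, against 236, 238 and 233 CPM in WT. All KO libraries lay below all WT libraries, with a log2 fold change of -0.58 (SE 0.0346; adjusted p = 4.27e-10, edgeR). Srsf7 (chromosome 17, 80200089 to 80207305) was at 98.6, 93.5 and 99.5 CPM in KO, against 124, 129.6 and 122 CPM in WT. The groups were again separate, with a log2 fold change of -0.37 (SE 0.0380; adjusted p = 3.00e-07, edgeR). With a smooth trend on GC content and length removed from each library, Srsf7 was at 0.04 and not called (edgeR adjusted p = 0.468). Srsf10 (chromosome 4, 135855747 to 135869908), whose protein turns into a splicing repressor when it is dephosphorylated, was at 27.7, 28.3 and 29.9 CPM in KO, against 34.9, 35.8 and 38.2 CPM in WT, with a log2 fold change of -0.34 (SE 0.0525; adjusted p = 2.77e-05, edgeR).

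Srsf9 had the highest level per length of the family and rose. It was at 131, 127 and 137 CPM in KO, against 110.0, 112 and 97.3 CPM in WT, with no overlap and a log2 fold change of 0.31 (SE 0.0481; adjusted p = 3.22e-05, edgeR). Srsf1, the founding SR protein and a general activator of splice sites, averaged 45.7 ± 1.39 CPM in KO and 35.2 ± 2.00 CPM in WT (SD, n = 3 each), with a log2 fold change of 0.38 (edgeR adjusted p = 4.32e-06). Srsf4, Srsf5 and Srsf6, which encode closely related SR proteins, rose with log2 fold changes of 0.36, 0.22 and 0.21, of which Srsf4 was at 0.13 and not called with that trend removed (edgeR adjusted p = 0.249). Srsf11, whose protein binds the polypyrimidine tract factor U2AF, was not called. It was at 17.7, 19.9 and 17.9 CPM in KO, against 17.3, 15.7 and 19.0 CPM in WT, where the groups overlapped, and its log2 fold change was 0.10 (edgeR adjusted p = 0.269). Srsf12 was all but absent, with 0 counts in the 3 KO libraries and 1 count in a single WT library. Both values are below the limit of 3 counts per library, so no fold is given.

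**Figure D2:**
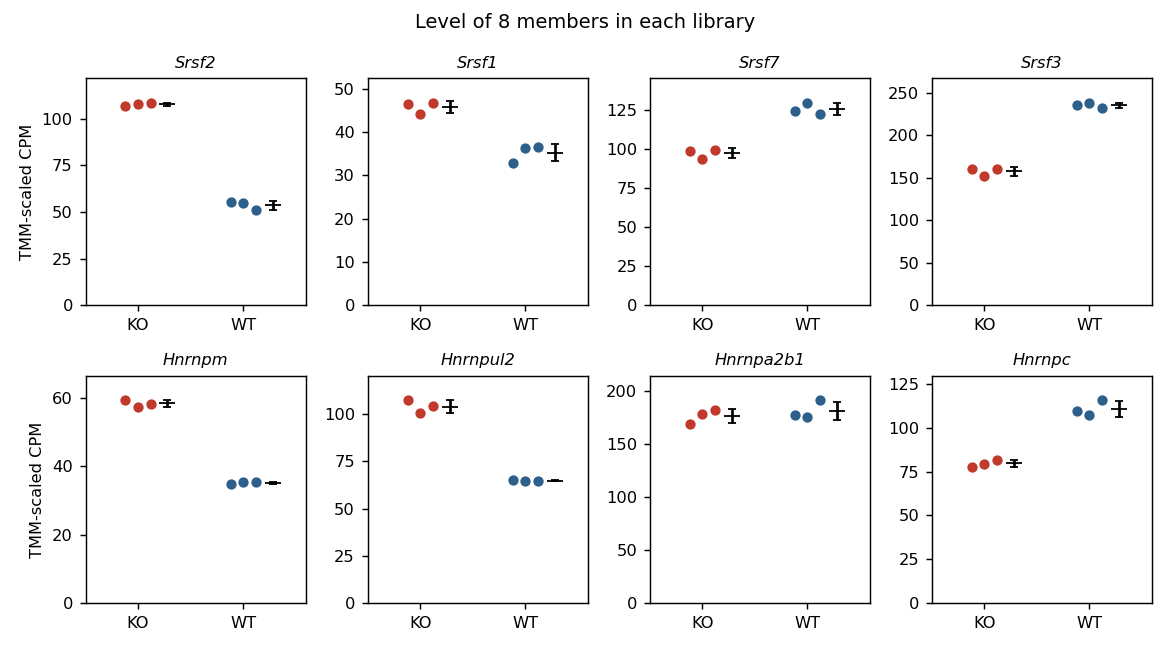
TMM-scaled CPM of 8 genes in each of the 3 KO and 3 WT libraries (points), with the mean and SD beside them. Srsf2, Srsf1, Hnrnpm and Hnrnpul2 are higher in all KO libraries, Srsf7, Srsf3 and Hnrnpc are lower, and the groups overlap for Hnrnpa2b1.

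The hnRNP genes with the largest rises were Hnrnpm, Hnrnpul2, Hnrnpu, Hnrnpa0 and Hnrnpl. HNRNPM in mouse macrophages is known to hold back the splicing of Il6 and other innate immune transcripts. Hnrnpm (chromosome 17, 33646233 to 33686860) was at 59.4, 57.6 and 58.5 CPM in KO, against 34.9, 35.3 and 35.5 CPM in WT. The log2 fold change was 0.73 (SE 0.0401; adjusted p = 1.60e-10, edgeR), with the KO libraries all above the WT libraries. Hnrnpu (chromosome 1, 178321108 to 178337797) encodes a nuclear scaffold protein that binds chromatin and nascent RNA. It was at 107, 107 and 110.2 CPM in KO, against 69.4, 66.9 and 65.8 CPM in WT, with a log2 fold change of 0.68 (SE 0.0370; adjusted p = 1.41e-10, edgeR). Its relative Hnrnpul2 (chromosome 19, 8819401 to 8834142), whose protein takes part in the response to DNA breaks, was at 107, 101 and 104 CPM in KO, against 65.2, 64.4 and 64.8 CPM in WT, with a log2 fold change of 0.68 (SE 0.0374; adjusted p = 1.55e-10, edgeR).

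Hnrnpa0 (chromosome 13, 58125879 to 58128556) encodes a protein that binds AU-rich elements of cytokine mRNAs and is phosphorylated by the kinase MK2 in LPS-treated macrophages. It was at 172, 155 and 178 CPM in KO, against 121, 113 and 97.0 CPM in WT. The groups were separate although the libraries within each varied more than for Hnrnpm, and the log2 fold change was 0.61 (SE 0.0642; adjusted p = 4.10e-07, edgeR). Hnrnpl (chromosome 7, 28808541 to 28822266), a regulator known for exon skipping in the CD45 transcript, was at 135, 141 and 134 CPM in KO, against 88.9, 90.6 and 90.9 CPM in WT, with a log2 fold change of 0.60 (SE 0.0352; adjusted p = 3.51e-10, edgeR). Its paralog Hnrnpll averaged 14.7 ± 0.893 CPM in KO and 12.4 ± 1.18 CPM in WT (SD, n = 3 each). The log2 fold change of Hnrnpll was 0.26 (edgeR adjusted p = 0.0101), and without WT replicate 1 it was 0.19 and no longer called (edgeR adjusted p = 0.0631). On the deposited FPKM (fragments scaled by gene length and library size) the limma adjusted p was 0.0595.

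The most abundant hnRNP gene per length by the deposited FPKM, Hnrnpab, was at 239, 231 and 225 CPM in KO, against 186, 198 and 181 CPM in WT. The groups were separate, with a log2 fold change of 0.30 (SE 0.0386; adjusted p = 4.12e-06, edgeR). Hnrnpd, which encodes the AU-rich element binding protein AUF1, averaged 42.8 ± 1.47 CPM in KO and 28.8 ± 1.19 CPM in WT (SD, n = 3 each), with a log2 fold change of 0.57 (edgeR adjusted p = 3.44e-08). Hnrnpul1, Hnrnpr and Hnrnpf rose by smaller amounts, with log2 fold changes of 0.49, 0.36 and 0.19. With the GC and length trend removed, Hnrnpul1 was at 0.06 and not called (edgeR adjusted p = 0.173). For Hnrnpr, the limma test on the deposited FPKM gave 0.30 and an adjusted p of 0.0514.

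The hnRNP genes that fell included Hnrnpc, Hnrnpk, Hnrnpa1 and Hnrnpa3. HNRNPC binds uridine tracts and competes with U2AF at cryptic splice acceptors. Hnrnpc (chromosome 14, 52073377 to 52104028) was at 77.8, 79.2 and 81.8 CPM in KO, against 109, 107 and 116 CPM in WT. Its log2 fold change was -0.47 (SE 0.0390; adjusted p = 1.94e-08, edgeR), with no overlap. Hnrnpk (chromosome 13, 58391142 to 58403343), a poly(C) binding protein, was at 189, 190.1 and 187 CPM in KO, against 216, 220.2 and 237 CPM in WT, with a log2 fold change of -0.25 (SE 0.0375; adjusted p = 2.31e-05, edgeR). The G-tract binding paralogs did not move alike: Hnrnph1 had a log2 fold change of -0.13 (edgeR adjusted p = 0.0196) and Hnrnph2 of -0.23 (edgeR adjusted p = 1.76e-04), both called lower, while Hnrnpf was called higher. With the GC and length trend removed neither was called, Hnrnph1 at -0.09 (edgeR adjusted p = 0.0878) and Hnrnph2 with the sign reversed at 0.06 (edgeR adjusted p = 0.224). Hnrnph1 was no longer called without KO replicate 2 (-0.12, edgeR adjusted p = 0.0736), WT replicate 2 (-0.11, edgeR adjusted p = 0.0907) or WT replicate 3 (-0.11, edgeR adjusted p = 0.0544), nor with DESeq2 (adjusted p = 0.0756), without an expression filter (-0.10, edgeR adjusted p = 0.114) or with scaling by library totals (-0.01, edgeR adjusted p = 0.798). Hnrnpa1, which antagonises SRSF1 at many exons, had a log2 fold change of -0.17 (edgeR adjusted p = 0.00176), and was not called at -0.05 when libraries were scaled by their totals (edgeR adjusted p = 0.273) or at -0.01 with the trend removed (edgeR adjusted p = 0.906).

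Hnrnpa2b1, Hnrnpdl and Hnrnph3 were not called. Hnrnpa2b1 was at 169, 178 and 182 CPM in KO, against 177, 176 and 191 CPM in WT, with overlapping groups and a log2 fold change of -0.04 (SE 0.0404; adjusted p = 0.426, edgeR). Hnrnpdl was at 50.2, 47.7 and 51.4 CPM in KO, against 50.3, 47.7 and 49.1 CPM in WT, with a log2 fold change of 0.02 (SE 0.0433; adjusted p = 0.675, edgeR). For Hnrnph3, which was at 5.26, 4.81 and 5.82 CPM in KO and 4.34, 5.43 and 5.34 CPM in WT, the log2 fold change was 0.08 (SE 0.121; adjusted p = 0.585, edgeR). Under scaling by library totals Srsf11 and Hnrnpdl were called higher, with log2 fold changes of 0.21 and 0.14 (edgeR adjusted p = 0.0200 and 0.0107).

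The Hnrnpa3 row had far fewer counts than rows of near-identical sequence. The Hnrnpa3 row held 1445 counts over the 6 libraries, whereas 26 near-identical rows, with at least 95% identity over at least 300 bases, held 17085. Most of these were in Gm6793 on chromosome 8, annotated as protein coding, with 10853 counts. The same coding stretch, bases 175 to 294 counted from the first base of the coding sequence of Hnrnpa3, is printed from GENCODE vM21 transcripts. It is the first stretch of this length without gaps that holds a difference in Gm6793. The small number of differences follows in part from that choice. Whether the reads in these rows came from Hnrnpa3 or from the copies themselves was not tested. A capital marks a base that differs from Hnrnpa3.
Hnrnpa3: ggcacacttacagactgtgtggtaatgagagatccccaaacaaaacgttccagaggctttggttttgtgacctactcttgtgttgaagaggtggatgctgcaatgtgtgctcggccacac
Gm6793: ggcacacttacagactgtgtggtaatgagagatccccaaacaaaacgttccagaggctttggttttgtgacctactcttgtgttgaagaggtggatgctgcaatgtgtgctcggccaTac
Gm12960: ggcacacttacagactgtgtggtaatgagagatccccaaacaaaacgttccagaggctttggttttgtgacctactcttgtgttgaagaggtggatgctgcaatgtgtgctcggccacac
Over these 120 bases Gm6793 had 1 difference and Gm12960, on chromosome 4, had 0. Over the longest match, the identity to Hnrnpa3 was 98.3% over 1446 bases for Gm6793 and 99.2% over 1071 bases for Gm12960. The Hnrnpa3 row alone was at 6.79, 5.72 and 5.88 CPM in KO, against 7.13, 7.69 and 7.61 CPM in WT, with a log2 fold change of -0.29 (SE 0.0980; adjusted p = 0.0176, edgeR). It was not called without KO replicate 2 (-0.24, edgeR adjusted p = 0.0785), KO replicate 3 (-0.26, edgeR adjusted p = 0.0691) or WT replicate 2 (-0.26, edgeR adjusted p = 0.0530), nor with DESeq2 (adjusted p = 0.0748), with scaling by library totals (-0.17, edgeR adjusted p = 0.137) or with the GC and length trend removed (-0.20, edgeR adjusted p = 0.0789). Gm6793 was at 47.0, 42.5 and 46.7 CPM in KO, against 60.0, 53.1 and 55.9 CPM in WT, with a log2 fold change of -0.31 (edgeR adjusted p = 5.99e-05). Summed over Hnrnpa3 and its 26 copies, the level was 81.5, 77.4 and 80.7 CPM in KO, against 96.0, 92.7 and 92.2 CPM in WT. The summed log2 fold change was -0.23 (SE 0.0372; adjusted p = 4.80e-05, edgeR). The direction was the same for the row and its main copy, and Gm6793 held most of the counts in the sum, so the sum does not stand apart from it. Of the 6 copies tested, 2 were called lower and 0 higher. Those not called were Gm12960 at -0.14, Gm11847 at 0.11, Gm5641 at 0.02 and Gm6363 at 0.33.

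In all, 10 members had such copies in the table. For Hnrnpk the copies held 13.2% as many counts as the gene, for Hnrnpa1 9.14% and for Srsf5 5.14%. Summing each member with its copies changed no call. Srsf2 overlaps Mfsd11 and Mettl23 on the opposite strand, and the sources used here do not state whether the counts used strand. Mfsd11 was called higher, with a log2 fold change of 0.45 (edgeR adjusted p = 9.15e-07), and Mettl23 had 0.03 (edgeR adjusted p = 0.731). Hnrnpm overlaps March2 on its own strand, which rose by 0.44 on the log2 scale (edgeR adjusted p = 3.70e-07). Over all libraries March2 held 10308 counts against 10196 for Hnrnpm, and Mfsd11 and Mettl23 held 6687 and 3814 against 17689 for Srsf2. The division of reads between overlapping rows was not tested.

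Fold changes in these libraries moved with the base composition of the transcripts. Split by the GC content of a representative transcript, the 5 equal groups of all genes had median log2 fold changes of -0.23, -0.07, 0.03, 0.15 and 0.20, from the lowest to the highest GC. The members lay mostly in the low-GC groups, with 12, 8, 5, 3 and 2 of them in these groups. The 9 members that were called lower all lay in the 2 groups of lowest GC, where 7 members were called higher. The 10 members in the other groups were all called higher. Over all genes tested, 31.5% were called higher and 29.8% lower, but these shares were not computed within each GC group. Whether the members' calls differ from those of other genes of like GC content was therefore not tested. Across genes, the Spearman correlation of fold change with GC was 0.49 over the 30 members, 0.28 over 12971 genes and 0.54 over 163 other splicing genes, where the points share the same 6 libraries. Members called higher had a median GC of 49.3% (range 40.6% to 56.8%), and members called lower 42.5% (range 40.0% to 45.4%).

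**Figure D3:**
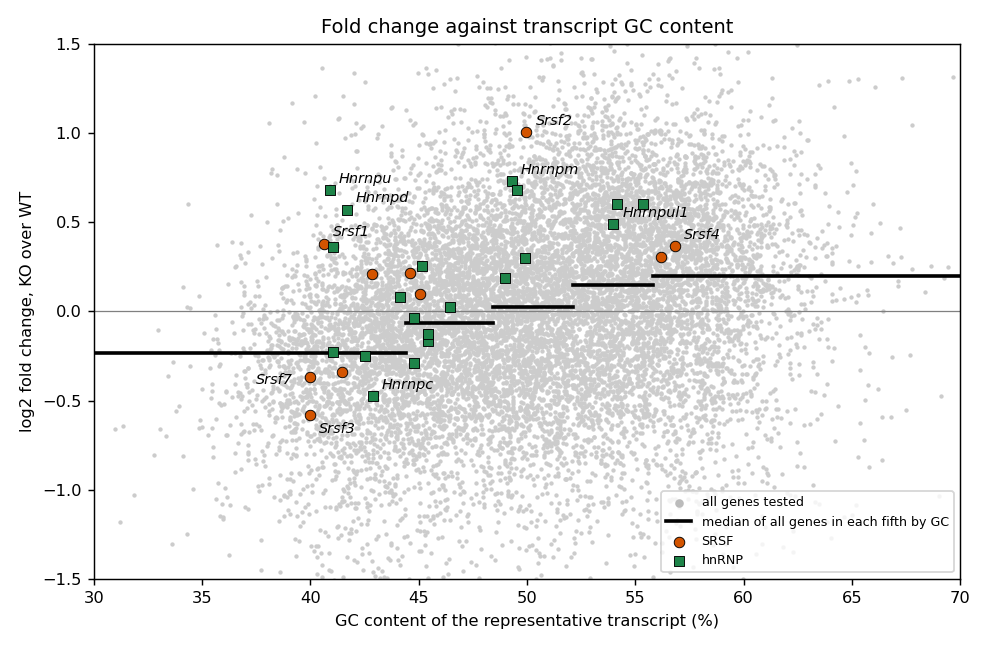
Log2 fold change, KO over WT, against the GC content of a representative transcript for the SRSF genes (circles), the hnRNP genes (squares) and all genes tested (grey), with the median of all genes in each of 5 equal groups by GC (bars). The medians climb from -0.23 to 0.20, while Hnrnpu, Hnrnpd and Srsf1 lie well above the median of their group; genes beyond the axis limits are not drawn.

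When a smooth trend on GC and length was removed from each library, 16 members were called higher and 4 lower, against 28.2% and 27.6% of all genes (55.8% in both directions). The 4 still lower were Srsf3 at -0.35, Hnrnpc at -0.26, Srsf10 at -0.15 and Hnrnpk at -0.09. Srsf7 and Hnrnph2 changed sign, to 0.04 and 0.06, and neither was called (edgeR adjusted p = 0.468 and 0.224). Hnrnpa1, Hnrnpa3 and Hnrnph1 were no longer called, at -0.01, -0.20 and -0.09 (edgeR adjusted p = 0.906, 0.0789 and 0.0878). Of the 5 members in the 2 groups of highest GC, all called higher with the trend in place, Hnrnpul1 and Srsf4 were no longer called, at 0.06 and 0.13 (edgeR adjusted p = 0.173 and 0.249). The other 3 were still called, Hnrnpa0 at 0.49, Srsf9 at 0.35 and Hnrnpl at 0.21. All 5 members called higher in the group of lowest GC had a larger difference without the trend, with 0.82 for Hnrnpu, 0.74 for Hnrnpd, 0.63 for Srsf1, 0.46 for Hnrnpr and 0.41 for Srsf6. Srsf5, in the next group, was at 0.36. Hnrnph3 was then called higher, at 0.30 (edgeR adjusted p = 0.0380). Srsf2 was at 1.04 and Hnrnpm at 0.67, close to their values with the trend in place. The part of base composition in the members' changes was not tested further.

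The summed level of the SRSF genes was 736 ± 11.4 CPM in KO and 737 ± 12.2 CPM in WT (SD, n = 3 each), a difference within the spread between libraries on this scale. The summed level of the hnRNP genes was 1727 ± 21.3 CPM in KO and 1520 ± 10.8 CPM in WT (SD, n = 3 each), with no overlap between the groups and a log2 ratio of 0.18. As a share of the raw library totals the SRSF sum had a log2 ratio of 0.11 and the hnRNP sum of 0.30. By summed FPKM these were 0.12 and 0.20. On both of these scales the KO and WT sums did not overlap for either family: the SRSF sum was 222 to 231 FPKM in KO and 201 to 215 FPKM in WT, and 0.0755% to 0.0773% of the library total in KO and 0.0695% to 0.0720% in WT.

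By deposited FPKM, a level per length, Srsf2 made up 16.0 ± 0.292% of the family in KO and 8.61 ± 0.145% in WT, and Srsf9 made up 34.9 ± 0.643% in KO and 30.5 ± 1.34% in WT (SD, n = 3 each). Srsf7 made up 18.7 ± 0.279% in KO and 26.1 ± 0.399% in WT, and Srsf3 made up 8.75 ± 0.143% in KO and 14.2 ± 0.289% in WT (SD, n = 3 each). The order by FPKM was Srsf9, Srsf7, Srsf2 and Srsf3 in KO and Srsf9, Srsf7, Srsf3 and Srsf2 in WT, so that Srsf2 and Srsf3 exchanged places. In the hnRNP family Hnrnpab made up 21.4 ± 0.647% in KO and 19.9 ± 0.783% in WT, and Hnrnpa0 16.1 ± 0.901% in KO and 12.1 ± 1.30% in WT (SD, n = 3 each). The FPKM ranks use the deposited gene length, which is 7899 bases for Srsf3 and 22199 for Hnrnpr. Per kilobase of 1 representative transcript, a scale chosen after the data were seen, Srsf3 ranked 2 in its family in both genotypes and Srsf2 ranked 3 in KO and 5 in WT. Hnrnpa2b1 ranked 1 among the hnRNP genes in both genotypes on that scale.

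**Figure D4:**
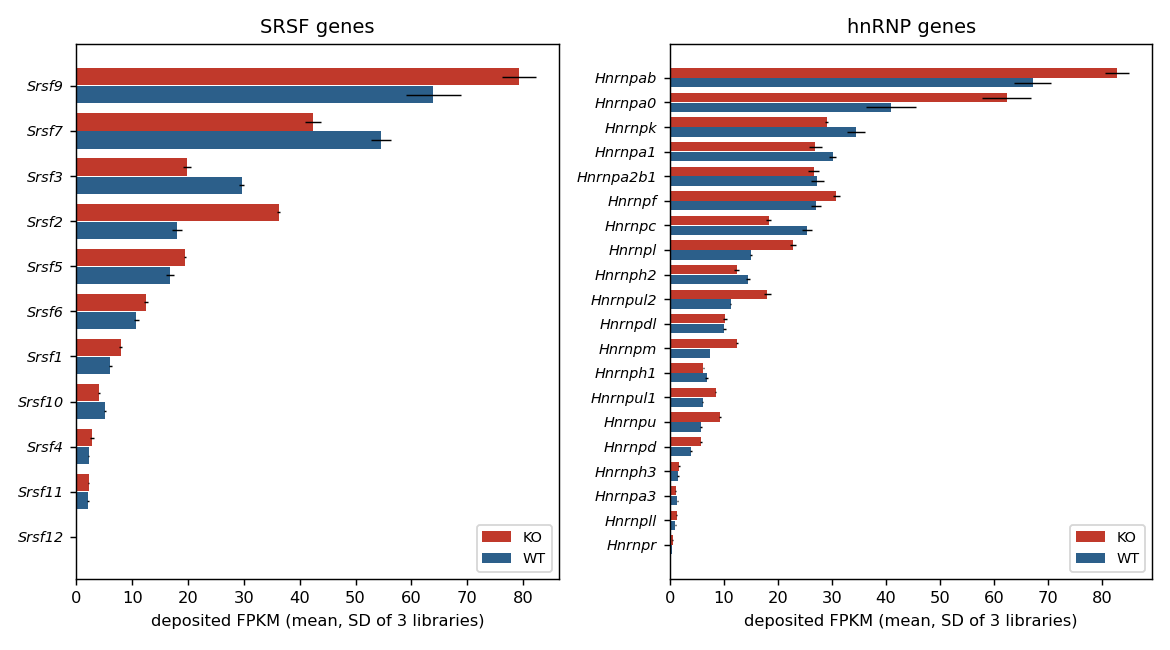
Mean deposited FPKM of each SRSF and hnRNP gene in KO (upper bar) and WT (lower bar), with the SD of 3 libraries. Srsf9 and Hnrnpab have the highest level of their families in both genotypes, and Srsf2 and Srsf3 change places between KO and WT.

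Gene counts do not separate isoforms. In the GENCODE vM21 annotation 19 of the 31 members have a transcript marked for nonsense-mediated decay, 9 of the SRSF and 10 of the hnRNP genes, and 22 have a transcript with a retained intron. Transcripts of the decay class were annotated for 11 of the 17 members called higher and for 4 of the 9 called lower. How many of all genes have such transcripts was not counted, so these numbers do not mark a trait of the members. Whether productive or decay-bound isoforms changed was not tested.

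The 250 bases before the RefSeq start sites were searched on both strands for letters that XBP1 and related factors are known to bind. Of the 31 members 29 matched the RefSeq table, with 41 start sites among 32851. The unfolded protein response letters TGACGTGG were in 0 of the 41 member windows and in 0.563% of all windows, and the endoplasmic reticulum stress element of type II was in 0 of the members and in 0.0304% of all. The classical endoplasmic reticulum stress element was in 1 member, Hnrnpa3, and in 0.113% of all windows. GCCACGT, which overlaps the unfolded protein response letters when read on the opposite strand, was in Hnrnpd and Hnrnpf and in 2.02% of all windows. TGACGTCA, the cyclic AMP response letters, was in 0 members and in 1.55% of all windows. The 3 windows that held the classical stress element or GCCACGT are printed with the match in capitals (chr2:75659009-75659055, plus strand, chr5:99978946-99978992, minus strand, and chr6:117907706-117907752, plus strand, RefSeq, GRCm38.p6).
Hnrnpa3: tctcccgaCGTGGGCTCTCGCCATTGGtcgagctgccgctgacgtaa
Hnrnpd: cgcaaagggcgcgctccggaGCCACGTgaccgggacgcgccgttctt
Hnrnpf: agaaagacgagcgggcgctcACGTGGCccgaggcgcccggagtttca
Of these genes Hnrnpd and Hnrnpf rose in KO and Hnrnpa3 was called lower. The Hnrnpf window lies inside the deposited gene (chromosome 6, 117900324 to 117925622, plus strand), before a RefSeq start within it. The Hnrnpa3 and Hnrnpd windows lie before the start of their deposited genes. A match is a string of letters and not a site shown to be bound. CCAAT, which is also the first part of the classical stress element, was in 20 of the 41 member windows, from 16 members, and in 33.8% of all windows. TATAAA was in 3 members, Hnrnpm, Srsf2 and Srsf3, and in 12.4% of all windows.

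Beyond the SRSF and hnRNP genes, 9 lists of other splicing genes held 166 genes, of which 163 were tested. Of these 66 rose, 54 fell and 43 were not called, so 73.6% were called, against 61.3% of all genes. With the GC and length trend removed 54 were higher and 51 lower. Among 25 partners of the SR proteins 13 rose and 7 fell, with a median log2 fold change of 0.21. Tra2a, an SR-like activator of exon inclusion, was at 20.5, 22.3 and 20.2 CPM in KO, against 55.3, 56.8 and 56.6 CPM in WT. Its log2 fold change of -1.42 (edgeR adjusted p = 6.54e-13) was larger in size than that of any SRSF or hnRNP gene, and -1.35 with the trend removed. Srrm2, a scaffold of nuclear speckles, rose by 0.92 (edgeR adjusted p = 1.57e-10). Of 11 tested genes for SR protein kinases and import, 3 rose and 2 fell. Clk1, an SR protein kinase, had a log2 fold change of -0.68 (edgeR adjusted p = 4.06e-08) and Dyrk1a of 0.55 (edgeR adjusted p = 8.90e-06).

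**Figure D5:**
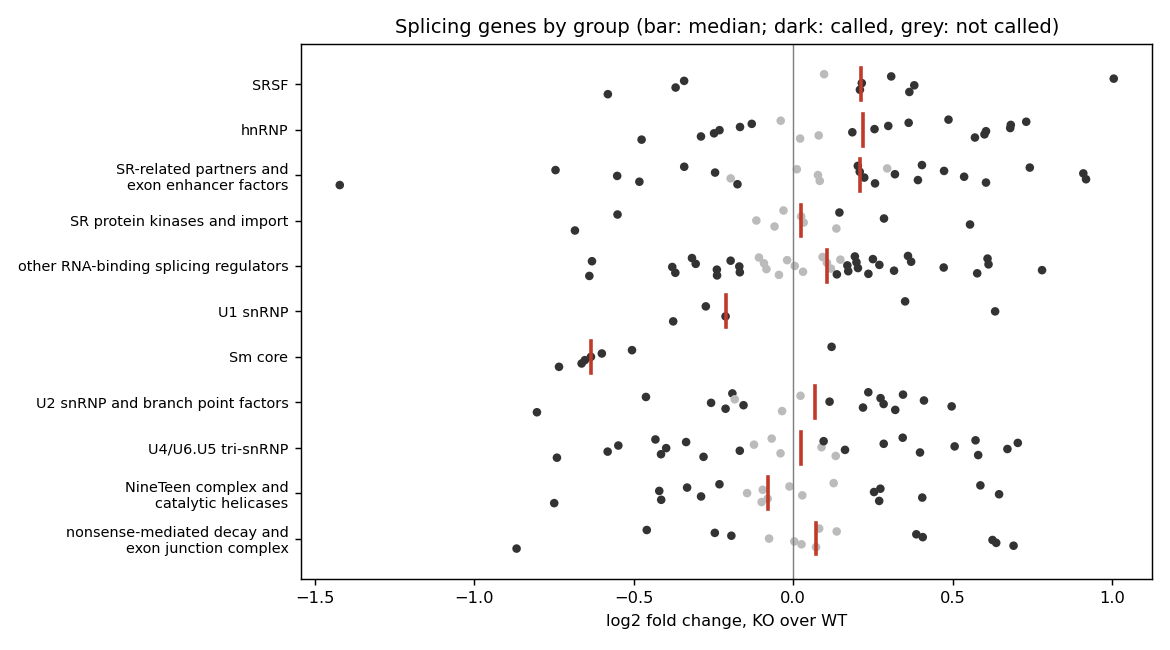
Log2 fold change, KO over WT, of each gene in the SRSF and hnRNP families and in 9 other lists of splicing genes (points), with the median of each list. The Sm core lies below 0 except for 1 gene, and the other lists spread to both sides of 0.

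Among the core spliceosome lists, the Sm proteins, which form the ring common to most spliceosomal snRNPs, had 6 genes lower and 1 higher of 7. Their median log2 fold change was -0.63, and -0.32 with the trend removed, when 6 were lower and 0 higher. Snrpe averaged 40.9 ± 3.32 CPM in KO and 68.2 ± 2.17 CPM in WT, with a log2 fold change of -0.73, and Snrpd3 averaged 127 ± 4.34 CPM in KO and 201 ± 4.33 CPM in WT, with -0.66 (SD, n = 3 each). The U1 snRNP list had 2 genes higher and 3 lower of 5, with 0.63 for Snrpa and -0.38 for Prpf39, whose value was -0.09 and not called with the trend removed (edgeR adjusted p = 0.485). The U2 list had 9 higher and 6 lower of 18, and 3 and 2 with the trend removed, with 0.50 for Sf3b2 and -0.80 for Snrpb2. The tri-snRNP list had 10 higher and 9 lower of 24, with 0.70 for the helicase Snrnp200 and -0.74 for Lsm5. Lsm5 was at 3.40, 3.45 and 3.61 CPM in KO, against 7.08, 3.44 and 6.97 CPM in WT, so the groups overlapped. With the trend removed Lsm5 was at -0.08 and not called (edgeR adjusted p = 0.736). The median of the tri-snRNP list was 0.03, and -0.04 with the trend removed.

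The complex around PRPF19 and its helicases had 6 higher and 6 lower of 19, with 0.65 for Dhx38 and -0.75 for Syf2. The median of that list was -0.08, and 0.04 when libraries were scaled by their totals. The decay and exon junction list had 5 higher and 4 lower of 15. Upf1, the helicase of nonsense-mediated decay, averaged 58.0 ± 1.36 CPM in KO and 35.9 ± 1.34 CPM in WT, with a log2 fold change of 0.69 (SD, n = 3 each; edgeR adjusted p = 7.61e-10), and Magohb, of the exon junction core, had -0.87 (edgeR adjusted p = 3.92e-11). Of 39 other RNA-binding regulators 17 rose and 11 fell, with 0.78 for Khsrp, a decay factor of AU-rich mRNAs, and -0.64 for Ptbp2, a paralog of the polypyrimidine tract repressor.

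Markers of other cell types also moved with genotype. The summed level of 10 neutrophil markers was 298 to 310 CPM in KO and 210 to 226 CPM in WT. All 5 tested genes were higher. Nearly all of this sum came from S100a8, S100a9 and Csf3r, with means of 93.5, 105 and 104 CPM in KO. Their WT means were 79.9, 75.2 and 62.2 CPM. The other tested genes, Elane and Prtn3, averaged 0.484 and 0.577 CPM in KO, against 0.0803 and 0.177 CPM in WT. Ly6g, Mpo, Ctsg, Cxcr2 and Retnlg were not tested, with at most 12 counts in any library. Of these, Ly6g and Retnlg had a lower mean in KO, and Mpo, Ctsg and Cxcr2 a higher one. The sum of 7 stromal markers was 236 to 245 CPM in KO and 459 to 472 CPM in WT, where 4 were lower and 1 higher. The B cell markers summed to at most 0.331 CPM in KO and 0.387 CPM in WT. The T and NK cell, mast cell and basophil, and dendritic cell markers summed to 3.46 to 3.999, 0.568 to 0.691 and 2.02 to 2.27 CPM in KO and to 4.64 to 5.69, 1.15 to 1.66 and 3.71 to 4.12 CPM in WT, and Ncr1, Ms4a2 and Fcer1a were at 0 counts in every library. Only 2 of the T and NK cell markers were tested, and they went opposite ways. Cd4 was called higher, with a log2 fold change of 0.69 (edgeR adjusted p = 0.0173). Lck, with means of 2.30 CPM in KO and 4.15 CPM in WT, was called lower at -0.85 (edgeR adjusted p = 9.71e-05). The mast cell and basophil list and the dendritic cell list each had 1 tested gene, called lower. In bulk RNA, a different mix of cells and a different level per cell cannot be told apart. The part of all these cell type markers in the members' changes was not tested.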

How the data were processed

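Libraries were built with the NEBNext Ultra kit from 1 ug of total RNA, per the labels' protocols. The submitters' processing notes name Bowtie 0.12.2 and 2 mouse builds (mm8, mm10) without saying how each was used. Per the file headers, the deposited counts are raw reads per gene. The deposited FPKM values were scaled by gene length and library by the authors. The deposited signal columns are the authors' mean normalized counts, and were not tested. The deposited log2 fold changes and p-values are the authors' own. Of the members, the authors' deposited table has 17 higher and 7 lower at an adjusted p under 0.05, and no log2 fold change differed from the edgeR value by more than 0.0047.

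Counts were tested with edgeR 4.0.16 (R 4.3.3), the quasi-likelihood test with TMM scaling and the default filter, over 13080 genes. Benjamini-Hochberg adjustment was used with a threshold of 0.05. The code was also run on simulated counts with few changed genes, balanced in direction, and the same spread setting for all genes. That run cannot speak to scaling or calling in data where most genes are called. SE is the absolute log2 fold change over the square root of F. Alternatives were other scalings, DESeq2 1.42.0, other filters, a loess trend (span 0.3) on GC and length for the 12971 genes with a GC value, a replicate block, leaving out each library, summing near-identical copies found with blastn 2.17.0, and limma 3.58.1 on log2(FPKM + 0.1) for genes with at least 0.5 FPKM in 3 libraries. Positions are on mm10, since 98.3% of the 54409 identifiers found in GENCODE vM21 had an identical position there. Pairs of libraries of a genotype had a chi-square per degree of freedom of 2.77 to 6.29, so none was a duplicate. The limit of 3 counts per library concerns counting error only. Both the SE and the SD values also include the spread between libraries.

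The members, gene lists and tests were chosen with earlier results of these data known. Values per library are given for the 6 called members with the highest and the 6 with the lowest fold change, the 3 of highest mean FPKM in each family and those not called, and up to 2 called genes are named from each other list. Srsf1, Hnrnpd, Hnrnpll and Upf1 are given with means by choice after their values were seen.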

Additional observations from a re-analysis of the deposited data

How the results depend on the processing

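The counts of members called, 17 higher and 9 lower, were within 1.5 times of those values under other scalings, filters and tools. The exceptions were 4 lower with the GC and length trend removed, and 4 with the replicate block and the trend removed together. Of the 20 tested members without near-identical copies 2 were lower, Srsf7 and Hnrnph1. This count is over fewer members, and most members called lower had such copies, while most called higher had none. Neither Srsf7 nor Hnrnph1 was called with the trend removed (edgeR adjusted p = 0.468 and 0.0878). Leaving out each library in turn gave 16 to 17 members higher and 7 to 9 lower, and 3840 to 3981 of all genes higher and 3547 to 3690 lower. Srsf7 changed sign to 0.0388 with the trend removed and to 0.0407 with the replicate block added, and Hnrnph2 to 0.0553 and 0.0543. Without the trend the calls of 22 of the 30 tested members stayed the same. The log2 ratio of the summed SRSF level was 0.11 as a share of raw totals and 0.12 by FPKM, and that of the summed hnRNP level 0.30 as a share of raw totals. The causes were not tested.

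Replicate numbers did not pair the libraries, since the deviations of same-numbered libraries from their group means correlated at -0.12, 0.13 and 0.03. With the replicate block 17 members were higher and 9 lower, and no call changed. Among the other lists, the U2 genes changed to 3 higher and 2 lower without the trend, from 9 and 6, and to 2 lower with library totals. The U1 genes changed to 1 and 1 without the trend, from 2 and 3, and the Sm genes to 0 higher, from 1. The kinases had 5 higher with library totals, from 3, and 4 lower without the trend, from 2, and the other regulators 7 lower with library totals, from 11. Hnrnph3, Hnrnpa3 and Srsf4, which had the fewest counts of the tested members, had the widest standard errors, so small differences in them may not be detectable at this depth.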
